A study of Mus musculus with 8 samples.

Results

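Chromosome 8 of the mouse was followed through liver tumors of 8 male FAH-/- mice, using every probe that the array files place on it. These were 8152 of the 170183 probes on the autosomes and X, chosen by position alone, between positions 8:3130823 and 8:131734335 of the mm9 build. The probes are 60 bases long, spaced 11.1 kb apart at the median, and cover 128.6 Mb, with the widest gap, of 2412.93 kb, between 19676354 and 22089225.

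Array comparative genomic hybridization measures DNA copy number from 2 dyes read at each probe. Here Cy5 marked the DNA of a tumor from an FAH-/- male, and Cy3 marked the reference, a single pool of liver DNA of 6 FAH+/+ littermates that were also male. Each tumor had an array of its own. The animals' ages were not given, and the FAH-/- mice had received 2.5% of the normal NTBC dose for 6 to 12 months, the normal dose being 7.5 mg/L in drinking water. The tumors form 1 group without subgroups, each array is 1 tumor of 1 mouse, and non-tumor liver of FAH-/- mice was not analysed here, so each value compares tumor with the littermate pool.

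Fumarylacetoacetate hydrolase (FAH) completes the breakdown of tyrosine, and mice without it accumulate toxic metabolites that injure hepatocytes unless NTBC blocks the pathway at an earlier step. Liver tumors often gain or lose whole chromosomes or long parts of them, which changes the copy number of every gene on the affected piece together. Loss of a chromosome or of part of it can leave a cell with a single copy of a tumor suppressor gene, and shows on such arrays as a run of neighbouring probes with ratios below the pool.

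Values are log2 ratios of tumor over pool. For each array, 0 was set at its commonest autosomal level, the level that the largest number of probes share once the array is divided into segments. A segment was called lost at a mean of -0.2 or below with at least 5 probes, and a chromosome was called lost as a whole where such segments covered at least 80% of its probed length. On an array without compression, 1 copy in place of 2 throughout a tumor would read -1. A smaller loss and a loss in a share of the cells cannot be told apart here.

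The arrays shared a strong pattern from probe to probe. On chromosome 8, correlations between arrays were 0.899 to 0.960 among tumors 1 to 6 and 0.721 to 0.835 for pairs of these with tumor 7 or 8, across probes, which are not independent and share the pool. Depth is therefore given with this pattern kept, and edges were placed after the pattern, taken as the median over the arrays and scaled to each, had been subtracted. The noise between neighbouring probes was 0.616 to 0.650 in tumors 1 to 6 and 0.388 to 0.389 in tumors 7 and 8 with the pattern. Without it, the order turned, to 0.119 to 0.165 in tumors 1 to 6 and 0.181 to 0.213 in tumors 7 and 8. In both channels, 98.7% to 99.8% of the chromosome 8 spots of an array were well above background, except in tumor 4, with 97.7%. Tumors 1 to 4 were on 1 slide and tumors 5 to 8 on another.

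Chromosome 8 was lost as a whole in tumor 6 and in part in tumor 4. Its mean log2 ratio was -0.487 in tumor 6, against a range of -0.0780 to -0.0073 in the other 7 tumors. The means of those 7 were -0.0089 in tumor 1, -0.0618 in tumor 2, -0.0073 in tumor 3, -0.0658 in tumor 4, -0.0171 in tumor 5, -0.0780 in tumor 7 and -0.0521 in tumor 8. Tumor 6 stood alone below -0.2, and the other 7 overlapped closely. With 1 of 8 tumors called, chromosome 8 was near the level of the whole genome, in which 11.9% of the 160 pairs of chromosome and tumor were called lost as a whole. Without the pattern the share was 10%, and with array medians at 0 it was 6.25%, and tumor 6 was the tumor called on both of these scales too, with a mean of -0.50 and of -0.241. With array medians at 0, chromosome 8 of tumor 1, at 0.205, was called gained as a whole, where 22.5% of the 160 pairs were.

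**Figure D1:**
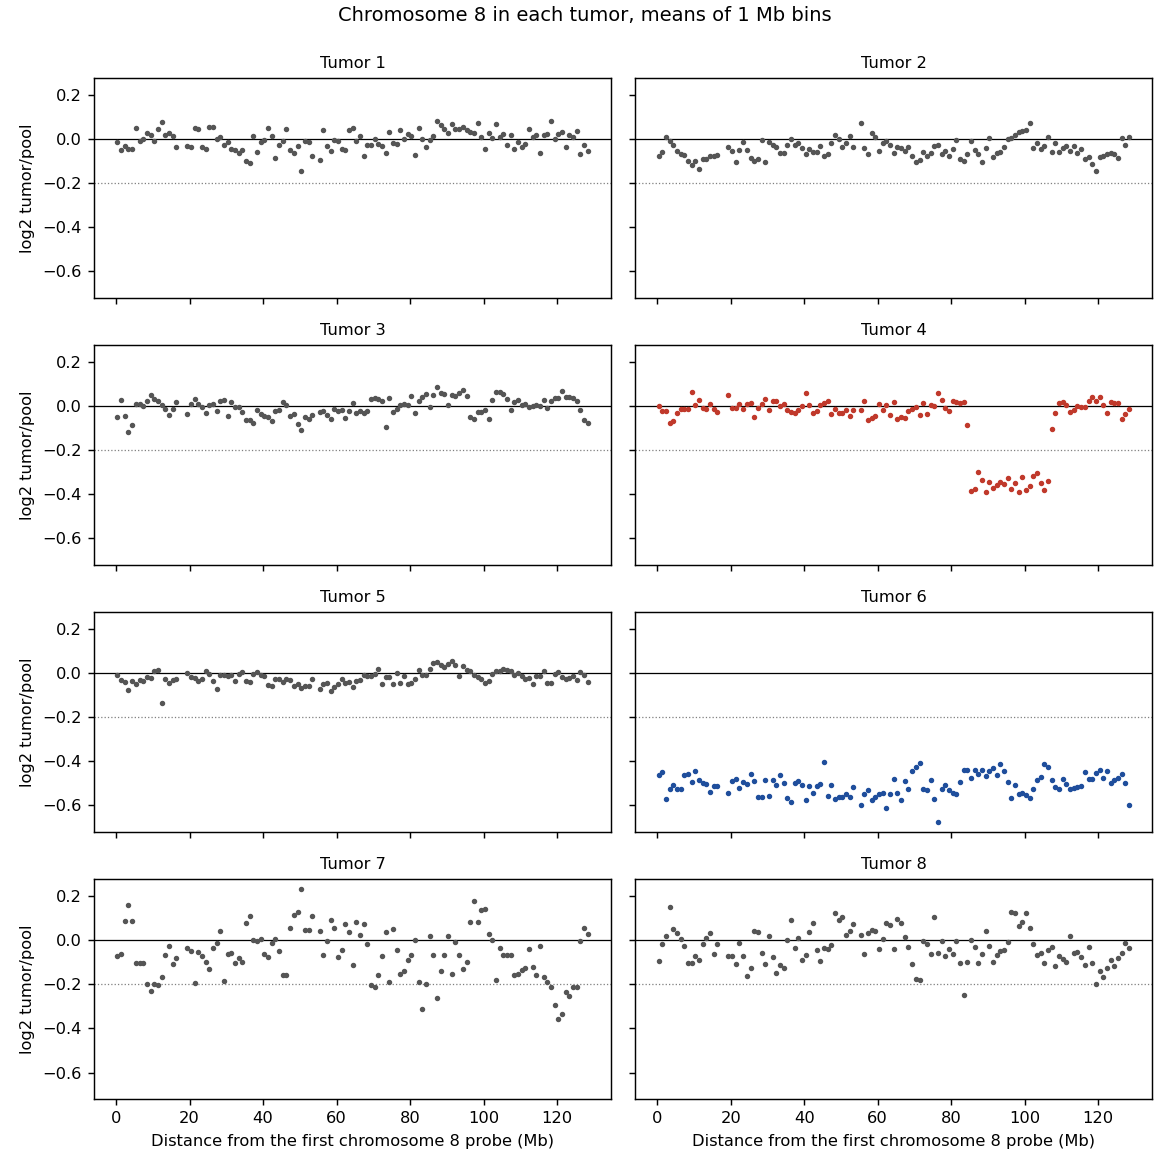
Mean log2 ratio of tumor over pool in 1 Mb bins with at least 5 probes, after removal of the shared probe pattern, against distance along chromosome 8 from its first probe, for each tumor. The dotted line is the call threshold of -0.2. All 126 bins of tumor 6 lie below it, as do 22 bins of tumor 4 in 1 block, while 16 bins of tumor 7 and 1 bin of tumor 8 lie below it in scattered places.

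In tumor 6 the loss ran from the first probe to the last. With the pattern kept, the whole chromosome was a single segment of 128.6 Mb at -0.487 in a tumor with 33.4% of all probes in called losses, which is 28.6% below the pool on the linear scale. Of its probes, 76.4% were below 0 with the pattern kept and 99.4% without the pattern.

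The depth of this loss varied along the chromosome within a limited range. In steps of 10 Mb, the means of tumor 6 lay between -0.556 and -0.444 with the pattern kept. Without the pattern, 126 of 126 bins of 1 Mb were below -0.2, from -0.674 to -0.404 with a median of -0.506. The SD of these bins was 0.0483, above the 0.0294 to 0.0442 in tumors 1, 2, 3 and 5, which had no loss of that length on chromosome 8.

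Segmentation without the pattern divided the chromosome 8 of tumor 6 into 29 segments, of which 27 were called lost, covering 99.9% of the summed length of its segments. The 21 lost segments of at least 1 Mb lay between -0.577 and -0.415. The 2 pieces of tumor 6 that were not called lost were short. At 8:41907349-41961132, 5 probes averaged 0.0769 in tumor 6, against -0.209 to 0.175 in the other tumors. At 8:48887655-48974760, 11 probes averaged 0.167 in tumor 6, against -0.261 to 0.0792 in the others. Both were chosen after their values were seen, and with the pattern kept their means in tumor 6 were 0.297 and 0.297.

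Within the lost chromosome of tumor 6, 2 short segments were deeper still. At 8:79603138-79939616, 34 probes over 336 kb averaged -0.808 without the pattern and -0.701 with it, a difference of -0.308 from the mean of the whole chromosome without the pattern. In the other 7 tumors the same probes averaged -0.170 to 0.0756 without the pattern. The lowest was tumor 8, in which a called loss of 33 probes at 8:79713314-80024051 (-0.229) overlapped this segment without the pattern. An uncalled segment of tumor 7, at -0.159, started at the same probe as that loss. Both fall outside the rule for naming. At 8:25097917-25141173, 5 probes over 43.3 kb averaged -0.812 in tumor 6, against -0.0793 to 0.124 in the other tumors. With the pattern kept, the shorter of the 2 segments of tumor 6 averaged -0.809. Neither was split off on that scale, where chromosome 8 of tumor 6 was a single segment.

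Tumor 6 lost other chromosomes to a similar log2 ratio. With the pattern kept, the means of chromosomes 9, 12, 13, 14 and X in tumor 6 were -0.458, -0.477, -0.470, -0.475 and -0.508. The mice and the pool were male, with a single X, so a log2 ratio on X does not stand for the same copy change as on an autosome. Chromosome 8, at -0.487, lay within the range of these chromosomes, and below each of the autosomes among them. Its difference from chromosome 9, the farthest of them, was -0.0291. The SD among its own 1 Mb bins was 0.102, which is a spread along the chromosome and not the error of its mean. Chromosome 4 was shallower, at -0.224, chromosome 2 averaged -0.183 and chromosome 18 averaged -0.120, while chromosome 15 was gained at 0.403. The 10 chromosomes with no such shift lay between -0.0109 and 0.0487. In tumor 6, 7 of 20 chromosomes were called lost as a whole, or 35%, so a whole loss was common in this tumor.

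**Figure D2:**
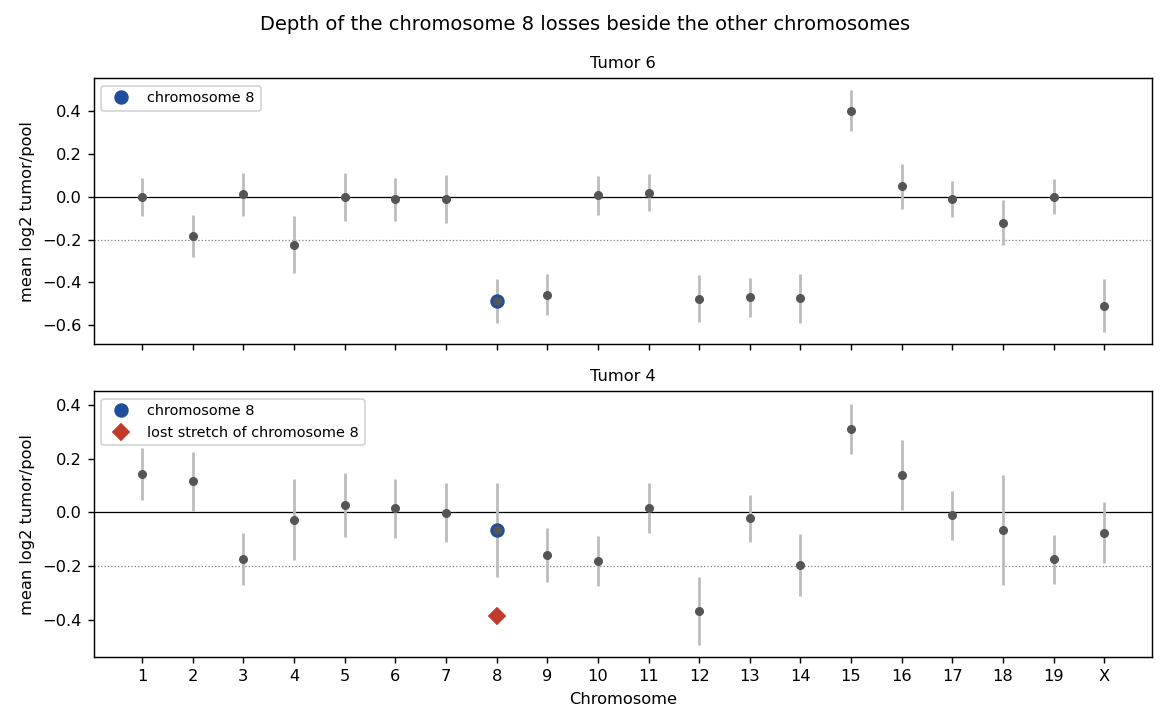
Mean log2 ratio of each chromosome in tumor 6 (upper panel) and tumor 4 (lower panel), with the shared probe pattern kept, where bars are the SD over 1 Mb bins. Chromosome 8 of tumor 6, at -0.487, sits beside chromosomes 9, 12, 13, 14 and X, and the lost stretch of chromosome 8 in tumor 4, at -0.388, sits beside chromosome 12, at -0.368.

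In tumor 4, 1 interior block of chromosome 8 was lost and both sides of it were kept. Without the pattern the loss ran over 8:87594415-110087005, a length of 22.5 Mb with 1395 probes, which is 17.5% of the probed length. Its mean was -0.351 without the pattern and -0.388 with it, or 23.6% below the pool. The chromosome was close to the common level on either side, at -0.0019 from the first probe up to 87 Mb and at 0.0124 beyond 110 Mb, with the pattern kept. Distal of the loss, 21.6 Mb up to the last probe held a single uncalled segment at 0.0011 without the pattern. Because the position and extent of the loss were known from earlier results on these arrays, its difference from its surroundings is a description with no test.

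Without the pattern, bins of 1 Mb inside and outside the loss did not overlap in tumor 4. The 22 bins wholly inside ranged between -0.391 and -0.297, with a median of -0.350 and an SD of 0.0270. The 102 bins wholly outside ranged between -0.0761 and 0.0627, with a median of -0.0090 and an SD of 0.0283. The 2 bins that hold an edge are in neither count. The edges themselves came from the same values, so the separation is set in part by the choice of edges. With the pattern kept, the bins overlapped in tumor 4, at -0.550 to -0.186 inside and -0.247 to 0.181 outside.

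Without the pattern, the loss in tumor 4 consisted of 6 called segments, at -0.280 to -0.380. Those of at least 1 Mb were at -0.373 (8:87594415-89975274), -0.280 (8:89985358-91118794), -0.371 (8:91131436-93866827), -0.350 (8:93903825-107440024) and -0.380 (8:107478285-109068519). The sixth, of 0.963 Mb at 8:109124386-110087005, was at -0.375. They were parted by pieces of 2 to 4 probes with means above -0.2, and these pieces held the only 9 of the 1395 probes outside a called segment. The shallowest segment was the second, and it had the lowest median in the other 7 tumors, at -0.0836 against -0.0428 to -0.0030 for the others.

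Between 87 and 110 Mb, 1452 probes were compared with the other 6700 of the chromosome in every tumor. With the pattern kept, the difference was -0.378 in tumor 4. In the other 7 tumors it had a lowest value of -0.0201, a median of -0.0104 and a highest value of 0.0029, with an SD of 0.0071. Tumor 6, where window and rest were lost together, had a difference of -0.0090. Without the pattern the difference was -0.328 in tumor 4 and 0.0161 to 0.0411 in the other 7, all above 0. The upward shift of the window in those 7 was thus seen without the pattern and not with it. With a pattern taken from the other 7 arrays, the mean of the loss in tumor 4 was -0.380.

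**Figure D3:**
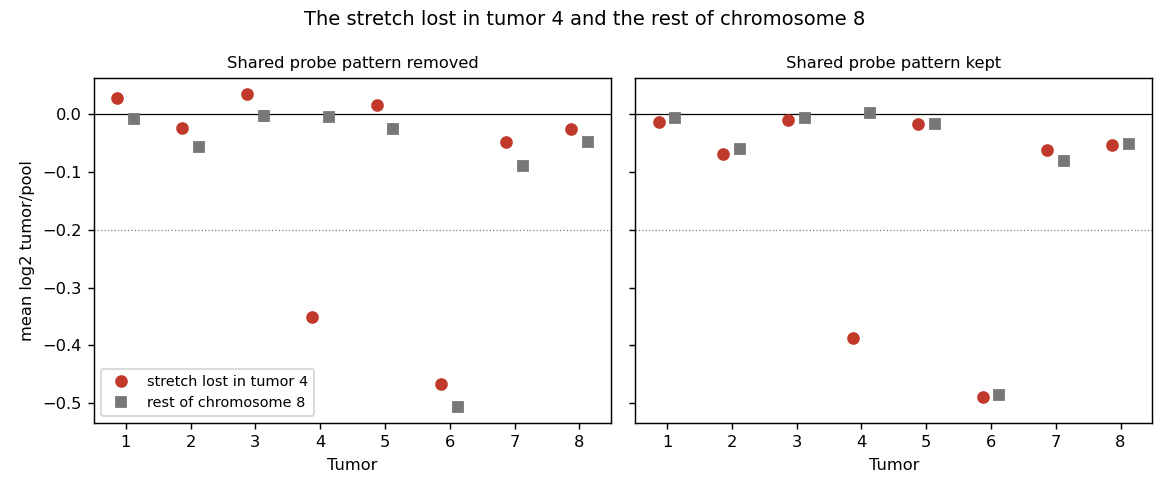
Mean log2 ratio of the 22.5 Mb stretch lost in tumor 4 (circles) and of the rest of chromosome 8 (squares) in each tumor, without the shared probe pattern (left) and with it (right). In tumor 4 the circle lies at -0.351 and -0.388 while the square is near 0, in tumor 6 both are lost, and in the other 6 tumors all points lie above -0.2.

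The proximal edge of the loss in tumor 4 was placed between the probes A_67_P01784618, which ends at 87582709, and A_67_P01784640, which starts at 87594415. A fit of 1 step to the probes within 3 Mb, on the same values without the pattern, put the edge at the same place. Its range of almost equal fits, 66.6 kb, holds for that scale alone. In tumor 4 the first 4 probes inside the loss read -0.364, -0.143, -0.285 and -0.50, and the last 4 outside it read -0.182, 0.0084, -0.134 and -0.104. Single probes on the 2 sides overlapped, so the edge rests on the run of probes and not on the pair beside it. Over 2 Mb on each side, 141 probes inside averaged -0.375 and 186 outside averaged 0.0168, a step of -0.392. The same step was -0.0294 in tumor 1, 0.0766 in tumor 2, -0.0243 in tumor 3, 0.0332 in tumor 5 and -0.0076 in tumor 6. It ran the other way in tumors 7 and 8, at 0.262 and 0.169.

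Without the pattern, the distal edge lay between A_67_P06632261, which ends at 110087005, and A_53_P168558, which starts at 110105555, and the step fit left a range of 6.02 kb. The range with the pattern kept was 688 kb, wider than the 326 kb at the proximal edge, so which edge is placed more closely depended on the scale. Without the pattern, the last 4 probes inside read -0.112, -0.795, -0.251 and -0.496 in tumor 4. The first 4 outside read -0.0032, -0.104, 0.0974 and 0.0410. Every value inside was below every value outside, but the edge was placed on these same values. Over 2 Mb the 194 probes inside averaged -0.361 and the 98 outside -0.0135, a step of -0.348, against 0.0125 to 0.0973 in the other 7 tumors. With the pattern kept, single probes beside the edge overlapped, with 1 inside at 0.501 and 1 outside at -0.754.

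**Figure D4:**
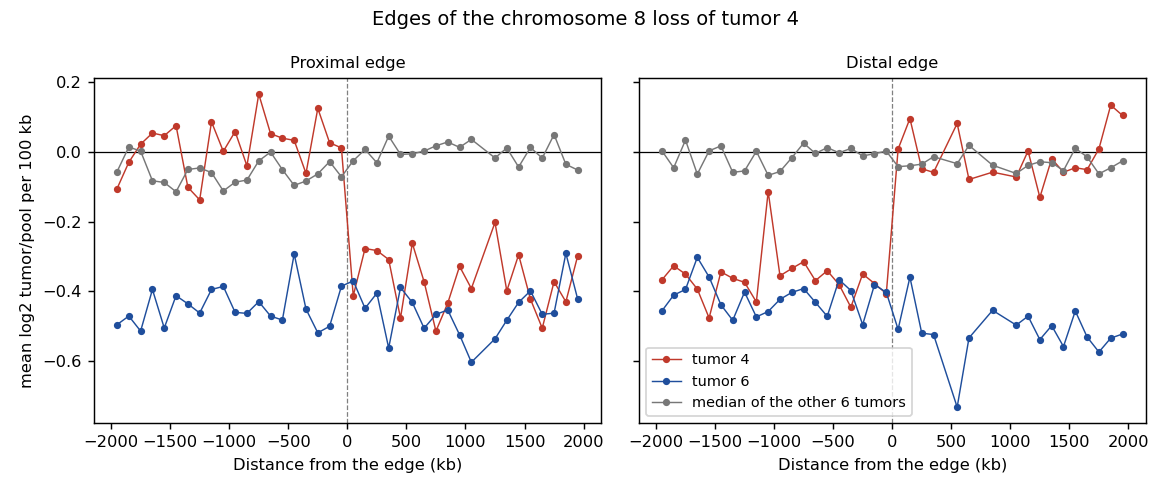
Mean log2 ratio in steps of 100 kb within 2000 kb of the proximal edge (left) and the distal edge (right) of the loss in tumor 4, without the shared probe pattern, for tumor 4, tumor 6 and the median of the other 6 tumors. Tumor 4 drops to -0.413 in the first 100 kb inside the proximal edge, against 0.0112 in the last 100 kb outside it, and at the distal edge reads -0.407 inside and 0.0079 outside, while tumor 6 stays low throughout.

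The proximal edge moved with the treatment of the probe pattern. With the pattern kept, 1446 chromosome 8 probes (17.7%) of tumor 4 were called lost, against 9.08% of all probes, and the called loss began at 87121106. The fitted step then had a range of 326 kb, from 86993252 to 87319161. Without the pattern that range was 87551955 to 87618577, so the 2 ranges do not overlap. The 52 probes of the 473 kb between the 2 called starts averaged -0.262 in tumor 4 with the pattern kept. In the same stretch tumors 1, 2, 3, 5, 7 and 8 averaged -0.227 to -0.389 although none of tumors 1, 2, 3 and 5 had a called loss there. Without the pattern, tumor 4 averaged 0.0170 in it. With the pattern kept, the distal end of the loss was at 110150023, in a second called segment after 5 probes at 8:109068460-109105643. Those 5 probes averaged 1.27 in tumor 4, against 0.278 to 1.06 in the other tumors, and 0.237 in tumor 4 without the pattern. At a call threshold of 0.3, the shallower second segment was not called and the main stretch of 18.96 Mb began at 91131436.

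The loss in tumor 4 had about the depth of the whole-chromosome loss in the same tumor. Chromosome 12 was the only chromosome of tumor 4 called lost as a whole, at -0.368 with the pattern kept. The stretch of chromosome 8 minus chromosome 12 was -0.0200. The SD among the 1 Mb bins of chromosome 12, a spread along it and not the error of its mean, was 0.126. A called loss of 22.6 Mb on chromosome 18, at 18:68121322-90708824, averaged -0.371. Chromosomes 14, 10, 19, 3 and 9 of tumor 4 had shallower means of -0.197, -0.182, -0.175, -0.174 and -0.157, and chromosome 15 was gained at 0.313. Over the same 1395 probes tumor 6 averaged -0.489, so the loss was 0.101 shallower in tumor 4 than in tumor 6 with the pattern kept and 0.116 shallower without it. These are 2 single tumors, and whether they differ in the share of cells with the loss was not tested.

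**Figure D5:**
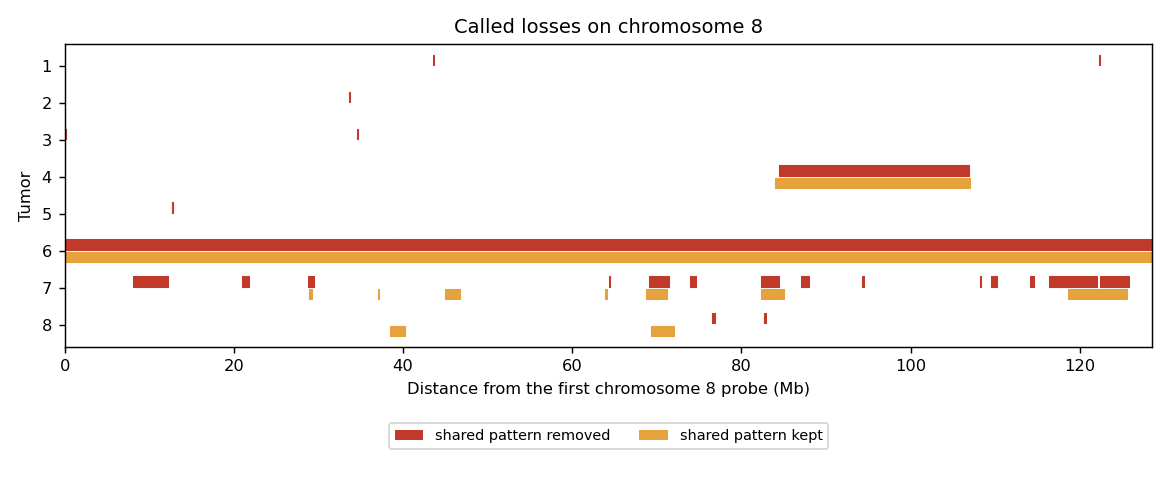
Called losses along chromosome 8 in each tumor, by distance from the first probe, without the shared probe pattern (upper bar) and with it (lower bar). The loss of tumor 6 spans the chromosome, that of tumor 4 covers 22.5 Mb, tumor 7 has short losses on both scales, and tumors 1, 2, 3, 5 and 8 have called losses of at most 0.496 Mb in all without the pattern.

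Tumors 4 and 6 shared nearly all of the stretch lost in tumor 4. Without the pattern, 99.4% of its 1395 probes were in a called loss in tumor 4 and 100% in tumor 6, against 7.96% in tumor 7 and 0 in tumors 1, 2, 3, 5 and 8. In the genome as a whole 8.11% of probes were called lost in tumor 4, 36.3% in tumor 6 and 9.96% in tumor 7. In tumors 1, 2, 3, 5 and 8 these shares were 17.2%, 2.01%, 29.8%, 0.434% and 13.7%, so the absence of larger losses on chromosome 8 in tumors 1, 3 and 8 stood beside losses elsewhere. The stretch was drawn from the calls of tumor 4, so the shares of tumor 4 in it, with all of its chromosome 8 loss there, follow from that choice. Of the chromosome 8 loss of tumor 6, 17.1% lay in the stretch, which holds 17.1% of the chromosome 8 probes. On all of chromosome 8, 59.8% of probes were lost in 1 tumor, 38.4% in 2 and 1.63% in 3, and none in more. Losses in at least 2 tumors thus covered 40.0% of chromosome 8 probes, against 29.9% of all probes on the autosomes and X. These shares were 34.0% and 33.4% with the pattern kept, and 26.2% and 13.8% with array medians at 0. Since tumor 6 had lost the whole chromosome, every probe lost in another tumor was lost in tumor 6 too.

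Tumor 7 carried short and shallow called losses. Of the chromosome 8 probes, 1891 (23.2%) were called lost in tumor 7 without the pattern and 1204 (14.8%) with it, where 9.96% and 11% of all probes were. Without the pattern they came to 22.3 Mb in 16 segments, of which 6 were at least 1 Mb long. These were 8:11181753-15313199 at -0.215, 8:72177075-74531108 at -0.219, 8:85428623-87604638 at -0.278, 8:119487023-122097342 at -0.207, 8:122464869-125173493 at -0.356 and 8:125567986-128931087 at -0.233. The last 3 lie close together near the distal end. On the scale that keeps the pattern, 10 segments were called lost, 14.3 Mb in all, of which 5 were at least 1 Mb long. Of these, 8:121807986-125439955 at -0.345 and 8:125448685-128727712 at -0.209 lay near the distal end. The other 3 were 8:48070309-49857922 at -0.234, 8:71900848-73444598 at -0.299 and 8:85497177-87660488 at -0.295. The called length in tumor 7 moved with the processing, to 6.96 Mb with normexp background correction, 13.2 Mb with array medians at 0, 14.9 Mb with merging below a z of 6, and 31.95 Mb and 3.13 Mb at call thresholds of 0.1 and 0.3. Of tumor 7's called probes, 5.87% lay in the stretch lost in tumor 4.

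Without the pattern, the third loss of at least 1 Mb in tumor 7 ended at the proximal edge of the loss of tumor 4. Its last probe ended 10.2 kb beyond the start of the loss of tumor 4, so 2 probes were shared. This meeting of 2 edges was picked out after the values were seen, and it lies within the range of 66.6 kb for the edge of tumor 4. The 2 losses overlapped with the pattern kept, since that of tumor 7 ended at 87660488 and that of tumor 4 began at 87121106. Tumor 8 read -0.0201 in the 2 Mb inside that edge and -0.189 in the 2 Mb outside it, also higher inside, without a called loss of 1 Mb there.

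Tumor 8 had no called loss of at least 1 Mb without the pattern, and with the pattern kept, where 17% of all probes were called lost in this tumor, it had 2, at 8:41615592-43319524 (-0.231) and 8:72401878-75225019 (-0.236). Along chromosome 8 the 1 Mb bin profiles of tumors 7 and 8 had a correlation of 0.788 without the pattern, over 127 bins that are not independent. Correlations of the other pairs lay between -0.746 and 0.680 on that scale. With the pattern kept, tumors 7 and 8 had a correlation of 0.850, below that of several other pairs, the highest being tumors 3 and 5 at 0.938. Beyond 110 Mb the means were -0.155 in tumor 7 and -0.0885 in tumor 8 with the pattern kept, against -0.0590 to 0.0195 in tumors 1 to 5. Both arrays lay on the second slide, and their probe noise was higher than in tumors 1 to 6 without the pattern and lower with it. The part of slide and array noise in their short losses was not tested.

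Tumors 1, 2, 3 and 5 had no chromosome 8 segment of at least 1 Mb called on either scale. Each had 1 or 2 called losses without the pattern, of 0.149 to 0.243 Mb in all. A pair of short ones was deep and was picked out after the values were seen, since both fall under the size of 0.8 set for naming short segments. In tumor 1, 9 probes at 8:46708229-46782871 averaged -0.680 without the pattern and -0.700 with it. The other tumors without a whole loss averaged -0.0957 to 0.120 at these probes without the pattern, and tumor 6 averaged -0.481. In tumor 5, 10 probes at 8:15818131-15967613 averaged -0.575 without the pattern and -0.601 with it, against -0.0601 to 0.0659 in the other tumors without a whole loss and -0.505 in tumor 6. The only short gain over 0.8 besides the 5 probes of tumor 4 was in tumor 8 with the pattern kept, at 8:29858410-29902924, where 6 probes averaged 0.801, against 0.455 to 1.07 in the other tumors.

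Over the 8 tumors, chromosome 8 averaged -0.0972 ± 0.160 (SD, n = 8), and was below 0 in 8 of 8 tumors. Its two-sided exact sign-flip permutation p was 0.00781, the smallest that 8 tumors allow, and 0.0391 after Benjamini-Hochberg adjustment over 20 chromosomes. Any 8 values of the same sign reach this unadjusted p, whatever their spread. By this test 20% of the 20 chromosomes were called, and 4 had a lower mean than chromosome 8. The sign depended on where 0 was set. With each array's median at 0, the mean was 0.0430 ± 0.140 and 1 of 8 tumors was below 0 (exact sign-flip permutation p = 0.383, adjusted p = 0.479). Without the pattern, where tumor 3 read 0.0022, the mean was -0.0955 ± 0.166, below 0 in 7 of 8 tumors (exact sign-flip permutation p = 0.0156, adjusted p = 0.0781).

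Most of that mean came from tumor 6. Without it the other 7 averaged -0.0416 ± 0.0297, all below 0. The exact sign-flip permutation p was then 0.0156, the smallest that 7 tumors allow, so the adjusted p of 0.0625 reflects the number of tumors. Tumors of slide 1 averaged -0.0360 ± 0.0322 and tumors of slide 2, tumor 6 among them, -0.159 ± 0.220 (SD, n = 4 each). The difference of 0.123 had an exact permutation p of 0.286 over 70 splits, and an adjusted p of 0.898 over 20 chromosomes, of which 0% were called.

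A shift common to the tumors was tested in 1 Mb bins over the whole genome with limma against a size of 0.1. Of 127 chromosome 8 bins, 1 was lower and 0 were higher at an adjusted p under 0.05, against 0.314% lower and 0.235% higher among all 2549 bins. The bin called was 8:57000001-58000000, at -0.489 ± 0.118 (SD, n = 8, limma adjusted p = 0.0013). It held a single probe, which read -0.333 to -0.719 in the 8 tumors with the pattern kept and -0.280 to 0.0731 without it. Without the pattern, limma called 0 bins on chromosome 8 in either direction, and 0 of all 2549. At an unadjusted p under 0.05 it was 0 on chromosome 8 in either direction, against 110 lower and 80 higher among all bins.

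With the pattern kept, 17 of 127 chromosome 8 bins were lower at an unadjusted p under 0.05 and 0 were higher, against 9.06% lower among all bins. With array medians at 0 the direction turned, with 1 lower and 7 higher on chromosome 8, and 30 lower and 481 higher among all bins. The median of the chromosome 8 bin means was -0.0920, against -0.0558 over all bins. Without tumor 6 these medians were -0.0350 and -0.0384. The bin that holds the proximal edge of the loss in tumor 4 and a bin early in it were not called, with limma adjusted p of 0.0989 for 8:87000001-88000000 and 0.115 for 8:91000001-92000000. Both bins fall outside the rule for naming, and a test of a shift common to the tumors cannot assess a loss in 1 tumor.

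The genes on the chromosome lost in tumor 6 include several with known roles in growth control and liver function. Genes were listed by role with earlier results of these arrays known, and any on other chromosomes were dropped. The 64 listed genes are thus on chromosome 8 by choice. They were placed by RefSeq's mouse annotation (GRCm38.p6), which holds 1043 protein-coding genes there. Because that annotation is on another build than the probes, its positions were not used, and which of these genes lie in the stretch lost in tumor 4 was not analysed here. The array measures DNA, so nothing about the expression of these genes is given.

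The list of growth control has 21 genes. Among them are Cdh1, which encodes the adhesion protein E-cadherin, and Cyld, which encodes a deubiquitinase that restrains NF-kappaB signalling. Rbl2 and E2f4 encode partners in repression of cell cycle genes, and Ctcf encodes a factor that organizes chromatin loops. A further 11 genes act in growth factor and insulin signalling, among them Insr, the insulin receptor, Irs2, an adaptor protein of that receptor, and Fgfr1, a receptor of fibroblast growth factors.

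The list of liver metabolism has 19 genes. Tat encodes tyrosine aminotransferase, the first enzyme of the pathway in which FAH is the last. Got2 and Gpt2 encode mitochondrial aminotransferases, Hp encodes haptoglobin, which binds free haemoglobin in plasma, and Lcat encodes the enzyme that esterifies cholesterol on lipoproteins. Nqo1 and Hmox1 encode enzymes of the response to oxidative stress, and Mt1 and Mt2 encode metallothioneins, which bind zinc and copper. The lists of DNA repair and telomeres, with 8 genes such as Polb, a polymerase of base excision repair, and Terf2, a telomere-binding protein, and of chromatin, with 5 genes such as Smarca5, a nucleosome remodeller, complete the 64. In tumor 6 all of these genes were on a chromosome that averaged -0.487, and in tumors 1, 2, 3 and 5 on one without a called loss of 1 Mb.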

How the data were processed

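The authors extracted images with Agilent Feature Extraction 10.7.3.1, per the submitters' processing notes. The deposited processed signals are intensity values, background-subtracted and dye-normalized, per the file headers, and the deposited log ratios are log10 values of tumor over pool. Per the file headers, spot marks are of the kind other and positions are mm9. No dyes were swapped.

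Log2 ratios of the processed signals were taken, outlier spots left out (5 to 17 of 8372 per array), and spots of a probe averaged. Recursive circular binary segmentation (Python 3.11.15, numpy 2.4.6, numba 0.67.0) used a split threshold of 1% false splits, values limited to 4 noise SD and merging below a z of 4. It was tested on simulated data. The commonest level was the peak of a kernel of width 0.03 over segment means. Bins were fitted with limma 3.58.1 in R 4.3.3 (intercept only, treat). Members and lists were chosen with earlier results of these data known. Named are called segments of at least 1 Mb, called segments under 3 Mb of at least 0.8 in size, probes at the edges of the loss of tumor 4, called bins and list genes.

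The labels give 8 individual mice and nothing on shared litters, so p-values measure the spread between these 8 tumors. The number of arrays limits precision.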

Additional observations from a re-analysis of the deposited data

Results flagged for a closer look

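Tumor 6 stood far from the others in 2 measures of the same chromosome 8 loss. The rule was a gap to the next tumor that was large beside the range of all 8 (Dixon's gap over range). The loss was known from earlier results of these arrays, and called length is bounded by the chromosome. The gaps are therefore a description, with no chance rate attached. The chromosome mean was -0.487 in tumor 6, against -0.0780 in the next tumor, a gap of 0.853 of the range. The called length was 128 Mb in tumor 6, against 22.3 Mb in the next.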

How the results depend on the processing

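Tumor 6 was the only tumor with a whole loss of chromosome 8 under all alternatives that include it, and the count was 0 to 1 when each tumor was left out. The length called lost in tumor 4 was 21.2 to 22.97 Mb (22.3 Mb as reported) and its window difference -0.394 to -0.327. The chromosome mean was -0.194 with medians over probes (adjusted p 0.0156) and turned to 0.0430 with array medians at 0. It kept its direction but passed the adjusted threshold no longer at -0.0955 without the pattern, -0.0899 with normexp, -0.0923 with spots well above background only, and -0.110 to -0.0416 when each tumor was left out (adjusted p 0.0625 to 0.0781, where 7 tumors allow no smaller unadjusted p than the 0.0156 reached). Alternatives added after seeing the data gave -0.108 without tumors 7 and 8, and -0.0995 and -0.0966 with kernel widths of 0.01 and 0.06, with adjusted p of 0.104, 0.0625 and 0.0521. The number of lower chromosome 8 bins was 0 without the pattern and 23 with limma against a size of 0 (12.2% of all bins), and 1 when each tumor was left out. The cause was not tested. The slide difference was 0.115 to 0.192, with adjusted p of 0.571 or more. No paired analysis was possible because the labels give 1 group and a single pool. Noise with the pattern kept limits the placement of edges.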
